A study of Mus musculus with 135 samples.

Results

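The cells described are the young haematopoietic stem cells (HSCs) that pass the study's limits on mapped reads, mitochondrial reads and detected genes, 52 of 61 young cells sequenced and of 135 cells in the series. All came from 1 C57BL/6 mouse of 2 to 3 months that carries a Vwf-eGFP reporter, in which the gene of von Willebrand factor drives a green fluorescent protein. Single bone marrow cells were sorted as 7AAD- (alive), Lin-, Sca-1+, c-Kit+, CD150+ and CD48-, captured on a Fluidigm C1 chip and sequenced over the whole transcript. The old cells, 62 of 74 from 1 mouse of 20 to 25 months with the same reporter and sort, are used only where a value is set beside that of the young cells. Cells of 1 mouse on 1 capture run are not replicates, so every value below describes these cells and has no p-value.

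HSCs are the rare cells of the bone marrow that renew themselves and give rise to all blood lineages. In the adult most of them are out of the cell cycle at any time, and a minority divide. Kit encodes the receptor for stem cell factor, Ly6a the surface protein Sca-1, Slamf1 the surface protein CD150 and Procr the endothelial protein C receptor. In single cells, transcription in bursts, the cell cycle and the loss of molecules when RNA is copied all add to the spread of a gene between cells, and sequencing alone does not separate them.

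The 52 cells held 273236 to 5688706 counted reads each (median 2798990), and 47 of them at least 1000000. The level of a gene in a cell is log2(CPM + 1), where CPM is the count per 1000000 counted reads of that cell, and a gene above a level of 2 is called expressed there. By this limit, which is 3 CPM, a cell expressed between 2973 and 5600 genes, with a median of 4115.5. Deeper cells did not express more genes by this measure. Pearson's r of expressed genes with log2 of the counted reads was -0.56 over 52 cells and -0.42 over the 47 deeper cells, and after each cell was thinned to 250000 reads it was -0.52. For genes with any read, r was 0.076 over 52 cells. In the shallow cells A4 and H6 1 read lies above the limit, as it does after thinning. Their expressed genes are therefore their genes with a read, 5169 and 5336. The reads carry no molecular identifiers, so depth counts copies and not molecules.

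The HSC markers Kit, Ly6a, Slamf1 and Procr were unequally detected as RNA. Kit was expressed in 49 of 52 cells (94.2%, 95% exact Clopper-Pearson interval 84.1 to 98.8%), with a level between 0 and 11.98 and a median of 8.53. Ly6a was expressed in 28 cells (53.8%, 39.5 to 67.8%), Procr in 11 (21.2%, 11.1 to 34.7%) and Slamf1 in 9 (17.3%, 8.23 to 30.3%). These intervals cover the counting of cells only. In the cells that expressed them, the median level was 6.75 for Ly6a, 7.88 for Procr and 7.26 for Slamf1. Levels of Ly6a were graded across the limit, and single cells held Procr and Slamf1 just above it. The sort selected c-Kit, Sca-1 and CD150 protein on every cell and did not use the receptor that Procr encodes. The levels of the 4 markers did not run together, with r over the 52 cells from -0.37 (Kit and Procr) to 0.24 (Slamf1 and Procr).

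**Figure D1:**
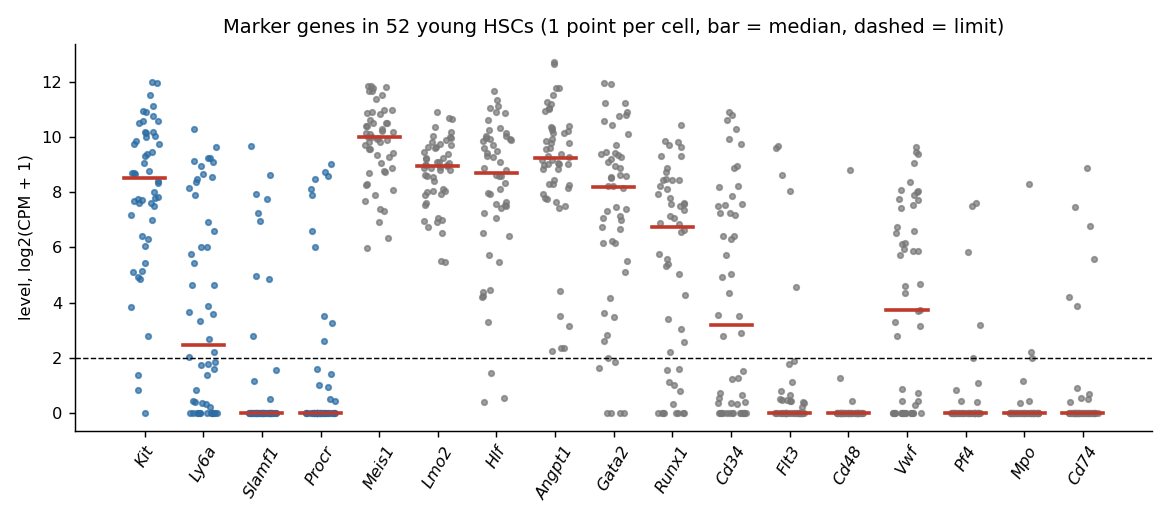
Level, log2(CPM + 1), of the HSC markers Kit, Ly6a, Slamf1 and Procr (blue) and 13 other genes (grey) in each of 52 young HSCs. Each point is a cell, the bar is the median and the dashed line is the limit of 2 for an expressing cell. Meis1, Lmo2 and Angpt1 lie above the limit in all cells, whereas Slamf1, Procr, Flt3, Cd48, Pf4, Mpo and Cd74 have a median of 0.

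Transcription factors and receptors known from HSCs were detected far more widely than Slamf1 or Procr. Of 35 HSC-associated genes, 35 were expressed in some cell and 21 in 26 or more cells, whereas over all 15181 genes 13.6% were expressed in no cell and 20.6% in 26 or more. Meis1, a homeobox factor that HSCs need, was expressed in all 52 cells with a level of 9.74 ± 1.44 (SD over cells) and Lmo2, a bridging protein of the haematopoietic factor complex, in all 52 with 8.73 ± 1.25. Angpt1, the ligand of the Tie2 receptor, was also above the limit in all 52 cells, but between levels of 2.24 and 12.7. Meis1 and Angpt1, like Slamf1 and Vwf, are among the genes with widely shared sequence described below, and Lmo2 is not. The part of such sequence in their detection was not tested. Hlf was expressed in 49 cells, Fli1 in 50, Gata2 in 45 and Mecom in 43. Lower numbers of cells expressed Fgd5 (6) and Hoxb5 (7), both used as reporters of HSCs.

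Markers of other cells the sort could hold ran from absent to widely expressed within most lists. Of the multipotent progenitor markers, Cd48 was expressed in 1 cell and Flt3 in 5, and Il7r in none of 52 (exact interval 0 to 6.85%), which bounds cells above the limit of 3 CPM and not cells that express the gene, since 19 cells held a read of it. Cd34 was expressed in 28 cells and Cd27 in 43. The summed CPM of the 7 progenitor markers ran from 0 to 3252, with a median of 274. Of 14 erythroid genes in the table, Hba-a1, Alas2, Rhd and Mt2 were expressed in no cell and Klf1 and Gata1 in 2 each, whereas Blvrb was expressed in 21, Cpox in 37 and Car2 in all 52, and the summed CPM ran from 20.2 to 9401. Of 19 granulocyte and macrophage genes, Elane, Cebpe, Ms4a3, Ly6c2 and Ly86 were expressed in no cell, Mpo in 2 and S100a8 in 4, with a summed CPM from 15.8 to 2333. Lyz2 was expressed in 43 cells, Lyz1 in 39 and Prtn3 in 38, and the part of free RNA or other cells in these values was not tested. Of 9 lymphoid genes, Vpreb1 was expressed in none, Rag2 and Blnk in 1 each, Lck in 11, Cd79b in 12, Cd3d in 16 and Cd22 in 34 (summed CPM 0.293 to 1119), and of 8 dendritic and macrophage genes C1qa and C1qc in none (17.7 to 876). Kdr and Plvap, of 8 stromal and endothelial genes, were expressed in none (16.7 to 1324), and the 7 MHC class II genes summed to between 0 and 1528 CPM. Csf3r, Xcr1 and Lepr, single members of these lists, were each expressed in all 52 cells at low and even levels, and all 3 are among the genes with widely shared sequence described below.

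Detection of platelet and megakaryocyte genes ran from no cell to most cells. Of 31 in the table, 30 were expressed in some cell, 8 in 26 or more and 0 in all. Over all genes, 20.6% were expressed in 26 or more cells and 3.85% in all. Vwf was expressed in 30 cells, Gp9 in 14, Itga2b in 13, Pf4 in 5 and Ppbp in 2. The summed CPM of the list ran from 131 to 7212, with a median of 2695, and among the widely expressed members were Rab27b (49 cells) and Fli1 (50), which is also an HSC-associated gene.

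Xist, the RNA that coats the inactive X chromosome, was expressed in 50 of 52 cells. In the cells G7 and H4, 4 and 9 reads of it were counted. Of the Y-linked genes only Uty was expressed, in the cells B2 and C3 with 13 and 15 reads beside 2159 and 3393 of Xist, and Ddx3y, Eif2s3y and Kdm5d had no read in them. Where these 4 cells were left out, 620 genes in place of 584 were expressed in every cell. Leaving out any cells can only keep or raise this number, and G7 and H4 expressed few genes (2973 and 3175). The rise is therefore not read as an effect of Xist or Y-linked reads.

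Detection across cells was steeply graded. Of 15181 genes, 584 (3.85%) were expressed in all 52 cells, 3123 (20.6%) in 26 or more and 2062 (13.6%) in none. A further 3888 were expressed in 1 to 5 cells, 1311 of them in 1 cell. The 584 universal genes held 28.4% of all counted reads, and the 3123 genes of 26 or more cells held 71.05%. Counting any read in place of the limit raised the universal genes to 1070, and a limit of 4 lowered them to 232.

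**Figure D2:**
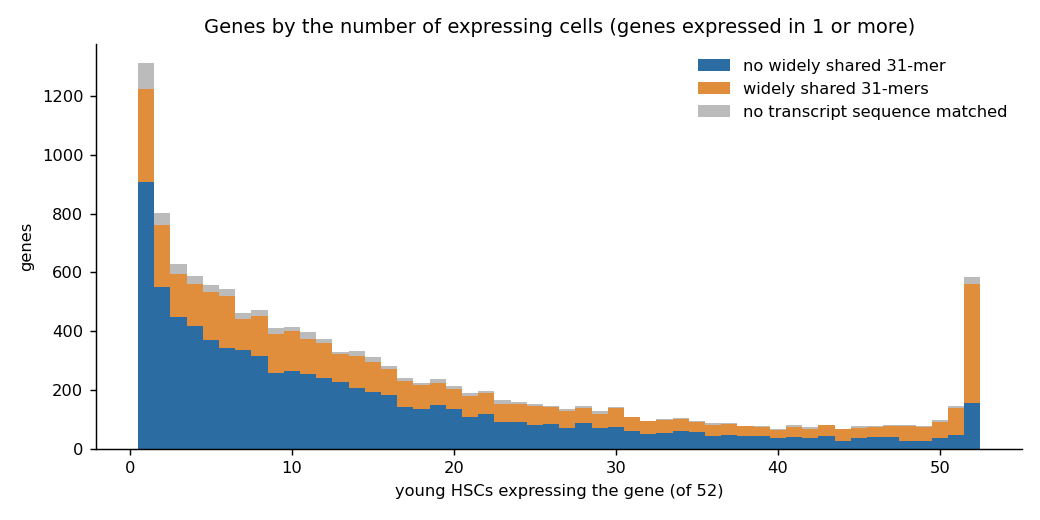
Number of genes by the number of young HSCs that express them, for genes expressed in at least 1 of 52 cells. Colours split the genes by whether their transcripts hold a 31-base stretch found in 100 or more other genes. The bar at 52 cells holds 584 genes, 402 of them with such stretches.

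By list, universal genes were most frequent among those of translation and the actin cytoskeleton. Of 82 genes of cytosolic ribosomal proteins, 73 (89.0%) were expressed in all cells, against 3.85% of all genes. The 9 members outside this class were Rpl22l1 (51 cells), Rps27l (41), Rpl34 (19), Rps4l (8), Rps27 (6), Rpl30 and Rpl26 (5 each), Rpl3l (1) and Rpl39l (0). Reads were mapped with 1 place kept per read, and the part of copies with like sequence in these low counts was not tested. Of 23 actin cytoskeleton genes 7 were universal (30.4%), among them Actb, Actg1, Pfn1 (profilin) and Tmsb4x (thymosin), and of 36 translation factors 7 (19.4%), among them Eef1a1 and Eef2. In contrast 0 of 79 subunits of oxidative phosphorylation and 1 of 39 of the proteasome were expressed in every cell, although their list medians were 36 and 32 cells. Splicing factors (4 of 41, 9.76%), chaperones (2 of 26, 7.69%) and glycolysis enzymes (2 of 17, 11.8%) lay between.

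Many other universal genes had low and even levels and transcripts that hold sequence found in many genes. To count them, the transcripts of GENCODE M21 were cut into stretches of 31 bases, and a stretch present in 100 or more other genes, on either strand, was called widely shared. Such stretches were present in 402 of 559 universal genes with a transcript (71.9%), against 34.2% of the table's genes. The share was 94.6% among universal genes with a mean level under 5 and 21.4% among those of 10 or more. The group included genes known from other tissues, chosen here after their values were seen. Gad2, an enzyme of inhibitory neurons, was expressed in all 52 cells with a level of 4.04 ± 0.68, Chrna1, a receptor subunit of muscle, with 6.09 ± 0.64, and Cyp2e1, a liver enzyme, with 5.64 ± 0.70. Xcr1 (5.03 ± 0.56), Lepr (5.59 ± 0.67) and Csf3r (5.27 ± 0.97) had the same pattern, as did Psmb11, the proteasome subunit of the thymus (5.93 ± 0.65). Among 306 universal genes with such stretches and a mean level under 7, the median pairwise r over cells was 0.18. Among the 157 universal genes without such stretches, taken at any mean level, it was 0.013. The median of the mean level was 8.97 in the 157 and 5.68 in the 402, so level and shared sequence cannot be told apart here. Of the 157, 136 (86.6%) were also expressed in all 62 old cells, and of the 402 with such stretches 279 (69.4%). The reads were mapped with 1 place kept per read, and the part of shared sequence in these levels was not tested. Without genes holding widely shared stretches, 157 genes were universal.

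Abundance was concentrated in few genes, with 22.7 to 37.3% of a cell's counted reads on its 100 most abundant. By mean CPM the first were Rn45s, the precursor of ribosomal RNA (17485 CPM, 8312 to 40385 between cells), Malat1, a nuclear non-coding RNA (10272, 3296 to 28403), Eef1a1, the elongation factor that brings transfer RNA to the ribosome (9875, 2442 to 21684), and Actb, beta-actin (8658, 2637 to 16482). Next came Rpl3, Car2, Hmgb1, Rpsa, Hspa8, Sept2, B2m, Hsp90ab1, Cbx3 and Tubb5, from 3499 to 2837 CPM. Reads of ribosomal protein genes made up 4.76 to 13.3% of a cell's counts, with a median of 7.73%. A long transcript gathers more reads, so levels between genes were also divided by the length of all exons of the gene in GENCODE M21. Per kilobase the first was Eef1a1 (3961 CPM per kb), then B2m, the light chain of MHC class I (3381), Actb (3232) and Rps3a1 (2776), and 10 of the first 15 encoded ribosomal proteins. Malat1 was ninth (1471), and Rn45s had no length.

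Abundance did not fix how even a gene was. Car2, carbonic anhydrase 2, was sixth by CPM and expressed in all 52 cells, yet its level ran from 4.20 to 13.2. Tubb5, a tubulin, ran from 2.95 to 13.8 and Hsp90ab1 from 3.85 to 12.6. Sept2, a septin, had levels from 1.41 to 12.9 and was below the limit in 2 cells. By contrast Rplp0 lay between 9.65 and 12.2.

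Among universal genes the most even were ribosomal. Among the 10 with the lowest SD were Rpl13 (0.50), C330021F23Rik (0.50), Rps23 (0.50), A4galt (0.51), B4galnt2 (0.52), Ctcfl (0.52), Rplp0 (0.52), Gm15910 (0.53) and Rps19 (0.53). Of these, A4galt, Ctcfl, Gm15910 and C330021F23Rik hold widely shared stretches. Within universal genes free of these, the 10 lowest included Rpl13, Rps23, B4galnt2, Rplp0, Rps19, Rps9, Rpl37, Rps29 and Actb. The 10 highest SDs were those of Itpripl1 (3.01), Nras (2.85), Mysm1 (2.67), Cd93 (2.64), Tmem263 (2.56), Uba1 (2.52), Angpt1 (2.49), Mga (2.46), Zfp780b (2.34) and Zfp26 (2.34), and all 10 hold such stretches. Their lowest cells lay just above the limit (2.06 for Itpripl1, 2.29 for Nras). Among universal genes free of them, high SDs were those of Hnrnpk (2.21), Arhgdib (2.18) and Ptges3 (2.18).

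Spread depends on level, so each gene's SD was set against the running median of the SD over genes nearest in mean level, and the difference is called the excess SD. Of 7823 genes with a mean level of at least 1 in 5 or more expressing cells, 101 had an excess SD of at least 1. The running median was highest, at 3.37, near a mean level of 3.87. Above a level near 9 the last genes share 1 window and are all set against an SD of 1.05, Rn45s and Sept2 among them. The 500 genes with the largest excess (6.39% of those ranked) had a median of 37 expressing cells and a median level of 8.05 in the cells that expressed them, against 5.89 over all ranked genes. The gene at rank 500 had an excess of 0.5311 and the next gene had 0.5309.

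**Figure D3:**
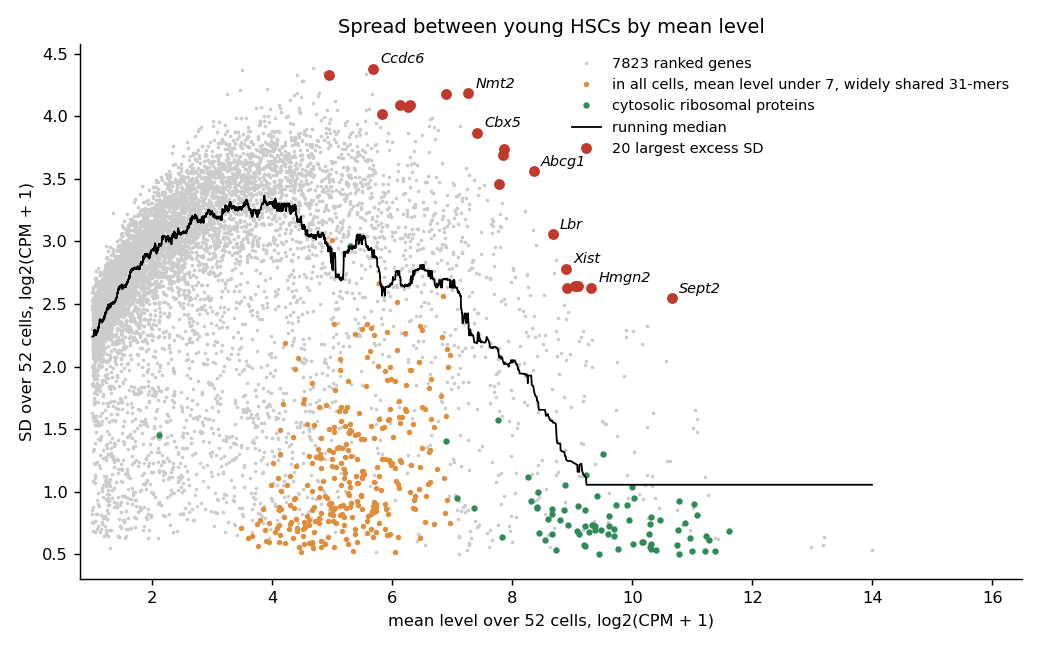
SD over 52 young HSCs against mean level, both in log2(CPM + 1), for 7823 ranked genes, with the running median as a line. The 20 genes with the largest excess SD (red) lie above it, ribosomal protein genes (green) below it at high levels, and universal genes with widely shared 31-base stretches and a mean level under 7 (orange) below it at low levels.

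The most variable genes were on in most cells, strongly, and near 0 in the rest. The first by excess SD was Nmt2, an enzyme that attaches myristate to proteins (excess 1.76), expressed in 43 cells and at 0 in the lowest, with a median of 9.52 and a highest of 11.97. Abcg1, a cholesterol exporter, followed (1.75), with 45 expressing cells, a median of 9.60 and a highest of 11.8. Poldip3 (44 cells), Cbx5 (45), Impact (42), Hmgn2 (50), Xist (50), Ccdc6 (34), Lbr (48) and Sept2 (50) made up the rest of the first 10. Cbx5 encodes the heterochromatin protein HP1 alpha, Lbr the lamin B receptor and Hmgn2 a nucleosome-binding protein. The next 10 were Pcnp, Usp22, Taok1, Stmn1, 4933434E20Rik, Twf1, Znf512b, Sptbn1, Ssr3 and 2900097C17Rik, down to an excess of 1.38.

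The largest excess depended on the measure. All 20 stayed among the first 500 when the cells, the scaling factors or the pseudocount were changed, but by the squared coefficient of variation of the CPM, which weights rare high cells, 3 of the 20 were among the first 500. With genes holding widely shared stretches left out of the ranking, 25 genes had an excess of at least 1. Of the 20, Nmt2, Poldip3, Cbx5, Sept2 and 4933434E20Rik hold such stretches and Znf512b had no matched transcript. These were left out by the filter and so have no rank in it. The other 14 of the 20 were all among the first 500. The first 5 were then Abcg1, Impact, Lbr, Usp22 and Xist.

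In the old cells 18 of the 20 were also among the first 500. Nmt2 was at rank 6 there, Abcg1 at 162, Poldip3 at 2, Cbx5 at 74 and Impact at 4. Sept2 was at 505, and Xist was not ranked, being expressed in 8 of 62 old cells. Of the 500 in young cells, 280 of 500 were in the 500 of the old cells, and the excess SD had r = 0.93 over 6941 genes ranked in both. Genes are not independent replicates.

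By list, the share among the first 500 is read against 6.39% of ranked genes. That share is over genes of all levels and was not matched to the levels of a list. Of the 7823 ranked genes, 3032 had a mean level of 1 to 2. The 500 had a median level of 8.05 in expressing cells, against 5.89 over all ranked genes. The part of level in the shares below was not tested. No ribosomal protein gene of 76 ranked was in it. Chaperones had 10 of 23 (43.5%), with the chaperonin subunits Cct3, Cct5, Cct6a, Cct7, Cct8 and Tcp1 among them. HSC-associated genes had 9 of 31 (29.03%), with Angpt1 at rank 53, Txnip at 134, Gata2 at 205 and Hlf at 293. G2/M genes had 11 of 50, S genes 7 of 38 (18.4%), glycolysis enzymes 4 of 15 (26.7%), with Pkm at rank 86, and proteasome subunits 5 of 38 (13.2%), with Psma6 at rank 62. Kit was at rank 236, Ly6a at 946, Slamf1 at 1533 and Procr at 1595. Immediate-early genes, which are switched on soon after a stimulus, had 5 of 23 (21.7%). Fos was expressed in 50 cells (median level 10.4, rank 38), Klf6 in 49, Dusp1 in 47, Egr1 in 42 (median 8.37, rank 42) and Atf3 in 1. Megakaryocyte and platelet genes had 4 of 18 (22.2%), splicing factors 7 of 39 (17.9%), translation factors 7 of 35 (20.0%), actin cytoskeleton genes 4 of 23 (17.4%) and oxidative phosphorylation 8 of 75 (10.7%). Interferon response genes had 0 of 12.

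Correlation between genes was weak as a rule. Between 6158 genes expressed in at least 13 cells there were 18957403 pairs, with a median r of 0.022 over 52 cells, a 1st percentile of -0.30 and a 99th of 0.37. An r of at least 0.7 was reached by 1050 pairs (0.00554%). Of these, 640 (60.95%) shared at least 1 stretch of 31 bases, and for 80 the sequence or position was not known. The other 330 had no stretch in common and did not overlap. With pairs of like-named genes set aside, the highest were mostly a gene and a copy, such as Gm1821 and Ubb (ubiquitin B, r = 0.992, 618 shared stretches), Gapdh and Gm12070 (0.987, 941 shared) and Gm6682 and Tuba1c (0.985, 732 shared). C330021F23Rik and Rps23 (0.983, 326 shared) and Gm5523 and Gm6981 (0.978, 81 shared) were of the same kind. The other pairs among the first 10 were Ifi205 and Mnda (0.980), Gm13826 and Rpl37 (0.975), Gm6251 and Rpl32 (0.971), Gm13102 and Pramel4 (0.968, 2276 shared) and Cox7c and Gm10012 (0.966, 223 shared). In the old cells these 10 pairs had r from 0.81 to 0.99. Reads of such copies may have been split between them by the counting, so these values are not taken as joint expression of separate genes.

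With both genes protein-coding, no widely shared stretch in either, no stretch in common and no overlap, 21 pairs of 25 genes had r of at least 0.7. Joining pairs that share a gene gave 1 group of 11 genes with 14 of these pairs, and 7 pairs apart from it. The 11 were Cdk1, Cenpe, Ckap2l, Cmc2, Kif20b, Pbk, Smc2, Spc25, Tacc3, Tbc1d31 and Tpx2, and they lie on 9 chromosomes. Cdk1 is the kinase that drives entry into mitosis, Cenpe and Kif20b are mitotic motor proteins, Spc25 belongs to the kinetochore, Tpx2 and Tacc3 to the spindle, Smc2 to condensin, and Pbk is a kinase active in mitosis. Of the 11, 6 are in the G2/M list and 0 in the S list. These pairs were chosen for their r, which is therefore a description.

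Within the group, Pbk and Spc25 had the highest r, 0.83 over 52 cells, each expressed in 13 cells, 10 of them shared, and with neither gene in 36. Leaving out any 1 cell gave 0.81 to 0.89, and given the number of expressed genes and log2 reads the partial r was 0.71. In the 62 old cells r was 0.67. Spearman's rho for Pbk and Spc25 was 0.65. For Cenpe and Tpx2 r was 0.75 but rho 0.34, and r among old cells was 0.062. Outside the group, Ezh2, the methyltransferase of Polycomb complex 2, and Uhrf1, which maintains DNA methylation at replication, had r = 0.71 (0.37 in the old cells), and Clspn, a replication checkpoint protein, and Mrpl50 had 0.72 (0.27). The pairs with no replication or mitosis gene were lower in the old cells, with Grpel2 and Kifap3 at 0.75 and 0.021, Dgcr2 and Prkab1 at 0.72 and -0.091, and 1700037H04Rik and Gcsh at 0.72 and 0.0063 for r in young and old cells. Glt8d1 and Myo1e, both universal, had 0.71 and 0.38, and leaving out 1 cell moved the first to 0.49. By Spearman's rho, Grpel2 and Kifap3 had 0.51, Dgcr2 and Prkab1 0.44, 1700037H04Rik and Gcsh 0.54, Clspn and Mrpl50 0.62, and Ezh2 and Uhrf1 0.66 in the young cells.

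The linked genes were each expressed in 13 to 33 cells, with Tpx2 in 33 and Smc2 in 26. A cell expressed between 0 and 11 of the 11, with a median of 2, and 6 cells expressed 0. The cells G5, F10, H3, E7 and C3 expressed all 11, B8 and G11 expressed 10, and C6, F5, A9 and F9 expressed 9. Their mean level over the 11 genes was highest in G5 (8.48), B8 (7.90), F10 (7.89) and H3 (7.88). This mean level had r = 0.62 with the number of expressed genes and -0.045 with log2 reads. In the 62 old cells, Tpx2 was expressed in 39, Smc2 in 20, Cenpe in 15, Tbc1d31 in 13, Kif20b in 11, Cmc2 in 9, Cdk1 in 7, Ckap2l and Tacc3 in 4 each, Pbk in 3 and Spc25 in 1. The choice of the 11 used detection and r in young cells only, so no difference between the ages is read from these counts. Age, mouse and capture run cannot be told apart here.

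**Figure D4:**
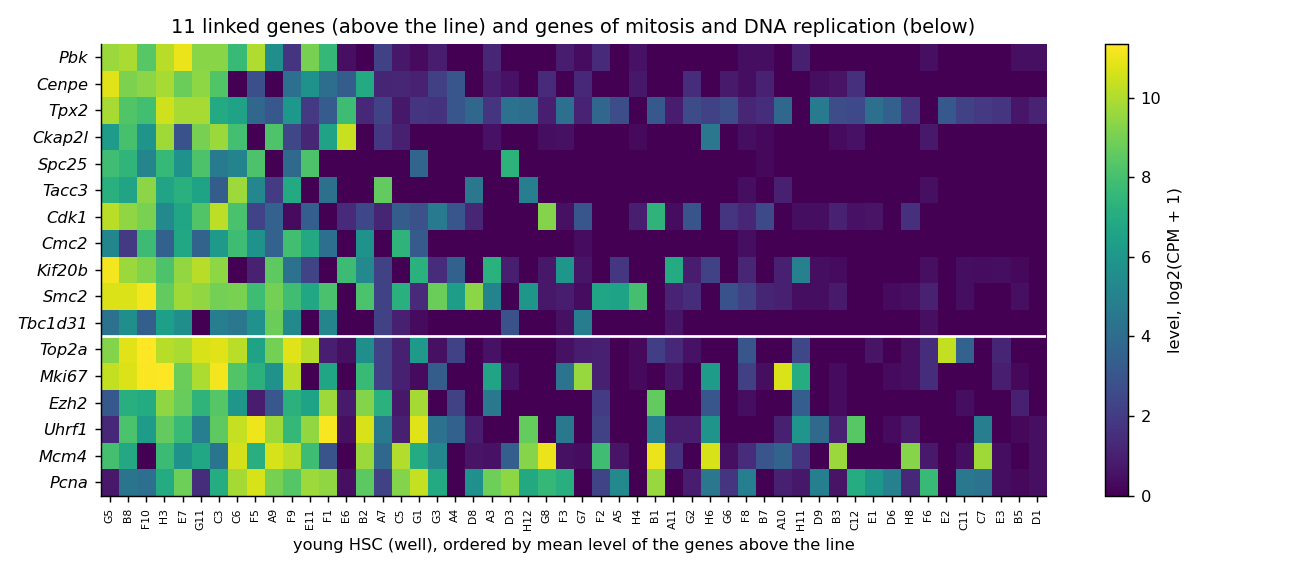
Level, log2(CPM + 1), of the 11 linked genes (above the white line) and of Top2a, Mki67, Ezh2, Uhrf1, Mcm4 and Pcna (below it) in each of 52 young HSCs, ordered by the mean level of the 11. The cells from G5 to C3 at the left express 10 or 11 of the 11, and 6 cells express none of them.

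The bases before the start sites of these genes were read because promoters of mitotic genes are known for the CCAAT box and for the CHR element, TTTGAA. The windows below are from RefSeq on GRCm38.p6, the 250 bases before the start used there, 5′ to 3′ on the gene's strand. For Ezh2, Ckap2l and Kif20b that start lies inside the annotated span of the gene. Most of the Ezh2 window and the last bases of the Ckap2l and Kif20b windows therefore lie within that span. Capitals mark CCAAT and TTTGAA as well as TTTNGCGC, an E2F-type element, on either strand (ATTGG and TTCAAA on the other). Cdk1, Ckap2l, Smc2 and Spc25 are shown as linked genes with matches, Ezh2 as the partner of Uhrf1, and Kif20b as a linked gene with none.
Cdk1, chr10:69352913-69353162, minus strand: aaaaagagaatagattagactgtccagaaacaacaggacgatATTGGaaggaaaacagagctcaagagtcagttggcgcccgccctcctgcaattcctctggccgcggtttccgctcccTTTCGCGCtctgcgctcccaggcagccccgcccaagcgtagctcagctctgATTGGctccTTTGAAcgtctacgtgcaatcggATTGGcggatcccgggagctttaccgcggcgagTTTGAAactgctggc
Ckap2l, chr2:129297213-129297462, minus strand: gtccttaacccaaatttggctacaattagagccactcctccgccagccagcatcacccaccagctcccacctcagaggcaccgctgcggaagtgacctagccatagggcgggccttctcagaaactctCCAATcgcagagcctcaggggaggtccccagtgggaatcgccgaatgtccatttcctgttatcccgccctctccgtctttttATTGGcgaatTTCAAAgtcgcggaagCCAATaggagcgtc
Smc2, chr4:52438971-52439220, plus strand: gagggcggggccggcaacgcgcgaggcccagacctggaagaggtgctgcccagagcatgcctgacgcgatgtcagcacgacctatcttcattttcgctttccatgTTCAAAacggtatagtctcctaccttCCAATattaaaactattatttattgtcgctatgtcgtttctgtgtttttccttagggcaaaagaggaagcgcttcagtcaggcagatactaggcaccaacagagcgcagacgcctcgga
Spc25, chr2:69206214-69206463, minus strand: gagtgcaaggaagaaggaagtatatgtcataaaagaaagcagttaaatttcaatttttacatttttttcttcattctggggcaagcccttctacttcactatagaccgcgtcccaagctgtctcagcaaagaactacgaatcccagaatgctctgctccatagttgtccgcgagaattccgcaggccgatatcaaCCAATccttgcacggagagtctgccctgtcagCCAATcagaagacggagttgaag
Ezh2, chr6:47595031-47595280, minus strand: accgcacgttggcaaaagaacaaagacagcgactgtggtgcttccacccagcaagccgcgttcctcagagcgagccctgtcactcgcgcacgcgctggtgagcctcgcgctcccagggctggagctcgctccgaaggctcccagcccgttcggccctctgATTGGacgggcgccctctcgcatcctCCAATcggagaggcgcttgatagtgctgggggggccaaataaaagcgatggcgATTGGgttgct
Kif20b, chr19:34922108-34922357, plus strand: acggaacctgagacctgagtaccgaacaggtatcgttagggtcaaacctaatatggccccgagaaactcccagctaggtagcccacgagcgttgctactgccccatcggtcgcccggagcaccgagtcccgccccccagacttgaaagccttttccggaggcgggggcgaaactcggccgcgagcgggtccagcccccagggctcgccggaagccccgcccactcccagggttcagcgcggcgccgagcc

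Cdk1 held 3 matches to CCAAT, 2 to TTTGAA and 1 to TTTNGCGC, and Ckap2l 3 to CCAAT and 1 to TTTGAA. Smc2 held 1 of each of CCAAT and TTTGAA, Spc25 held 2 to CCAAT and Ezh2 3. Over the longer RefSeq windows, from 250 before to 50 after the start, which 11229 genes of the table have, CCAAT was present in 38.5% and TTTGAA in 12.7%. Among 47 G2/M genes with a window the shares were 76.6% and 68.1%, and among 31 S genes 22 and 5 genes held them. TTTNGCGC was present in 2.36% of all, in 6 of 31 S genes (19.4%) and in 3 of 47 G2/M genes (6.38%). Of the 8 linked genes with a window, 5 held CCAAT and 5 TTTGAA. Of the 500 most variable genes, those with a window held CCAAT in 39.1%, TTTGAA in 12.5% and TTTNGCGC in 4.43%. For the universal genes the shares were 38.1%, 13.8% and 2.57%, with TATAAA in 11.7% against 7.81% of all, and in 16.4% of those without widely shared stretches. The median number of CpG was 19 over all genes, 18 in universal and 24 in the most variable genes. A match is a run of letters and not a site of binding.

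Within lists, r is read against the median of 0.022 over all pairs. The median pairwise r was 0.43 over 36 G2/M genes, with 226 of 630 pairs (35.9%) at 0.5 or more against 0.124% of all pairs, and 0.36 over 31 S genes. Given expressed genes and log2 reads, these fell to 0.26 and 0.21. In the old cells they were 0.18 and 0.29. For 9 histone genes the median was 0.60, and members of that family share sequence. Ribosomal proteins had 0.17, which moved to 0.60 with TMMwsp factors and to 0.58 with poscounts factors. For oxidative phosphorylation it was 0.10, for proteasome subunits 0.082, for immediate-early genes 0.063, for megakaryocyte and platelet genes 0.044 and for HSC-associated genes 0.029. Among 30 HSC-associated genes no pair of 435 reached 0.5, and the highest was 0.42. The genes most like Kit were Uqcrc1 (r = 0.42) and Por (0.42), and those most like Ly6a were Fbxw5 (0.57) and Emcn (0.47), and in the old cells these 4 had r between -0.11 and 0.067.

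Negative correlations were weaker. The lowest r was -0.66, and 1442 pairs were at -0.5 or below. The 5 lowest were 2900026A02Rik and Cox8a (-0.66), Med1 and Rps29 (-0.64), Camk4 and Gm5643 (-0.64), Cbx3 and Tmppe (-0.64) and Cfl1 and Pbx2 (-0.64). For Camk4 and Gm5643, leaving out 1 cell moved r to -0.35, and for Cbx3 and Tmppe to -0.40. Spearman's rho was smaller in size for all 5, at -0.57, -0.43, -0.38, -0.48 and -0.23 in the same order. In the old cells these 5 pairs had r between -0.19 and 0.052.

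By r between cells over many genes, no cell stood apart from the rest. Over genes with a mean level of at least 1, r between 2 cells had a median of 0.33 and ran from 0.24 to 0.41 over 1326 pairs, and each cell's median r with the others lay between 0.313 and 0.349. In the mean level of G2/M genes cells did differ, from 1.08 to 8.52 with a median of 2.17, and G5, B8, G11 and F10 were highest. In a principal component analysis of the 500 most variable genes the first component held 7.57% of the variance, the second 3.88% and the third 3.40%. The first had its largest loadings for Top2a, Rrm1, Pbk, Uhrf1, Smc2, Mki67, Sept11, Casc5, Tubb4b and Mcm4, of which 3 are in the S list and 3 in the G2/M list. Its score had r = 0.80 with the mean level of S genes, 0.75 with that of G2/M genes and 0.87 with that of oxidative phosphorylation genes. The 500 genes include 7 S, 11 G2/M, 8 oxidative phosphorylation and 5 immediate-early genes. A component's r with the means of these lists is therefore in part built in. The first score also had r = 0.84 with the number of expressed genes and -0.19 with log2 reads, over the same 52 cells. The cell with the lowest score, B5, expressed 3042 genes and 6 S genes. The second component was led by Sat1, Ccdc6, Arl14ep, Braf, Capza2, AW549877, Fam32a, Map3k1, Kmt2a and Ppp2r5c and had r = -0.46 with log2 reads and 0.42 with immediate-early genes. The third was led by Oser1, Pitpnc1, Phrf1, Gbp7, Dock1, Tmpo, Gtf2a1, Pik3r1, F630111L10Rik and Numa1 and had an r of at most 0.22 in size with the S, G2/M and immediate-early means and with reads.

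**Figure D5:**
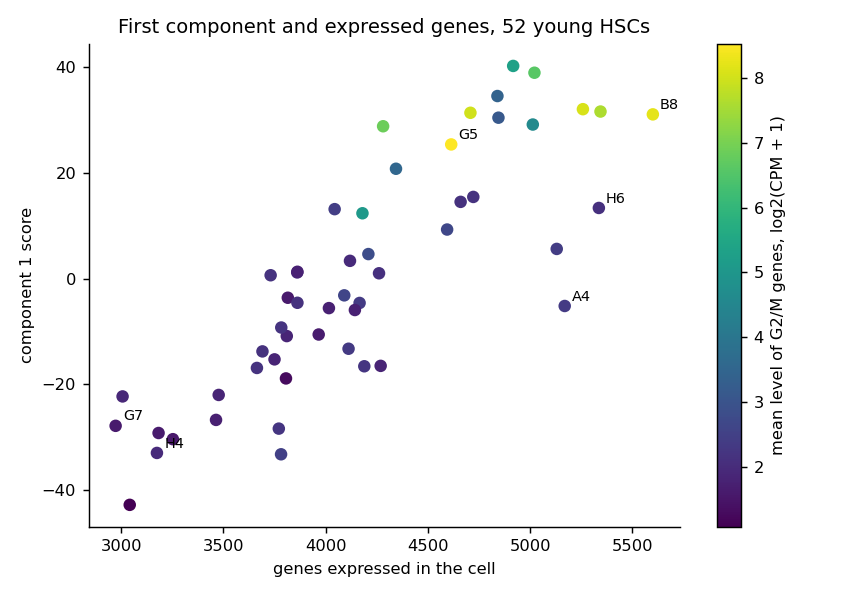
Score on the first principal component against the number of genes expressed, for 52 young HSCs, coloured by the mean level of G2/M genes, log2(CPM + 1). Cells such as B8 with more expressed genes score higher (r = 0.84), and the shallow cells A4 and H6, with 5169 and 5336 expressed genes, score -5.17 and 13.4.

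The number of expressed genes moved with whole classes of genes. Its r over 52 cells was 0.76 with the mean level of oxidative phosphorylation genes, 0.63 with G2/M genes and 0.57 with S genes, and -0.33 with ribosomal proteins and 0.086 with immediate-early genes. Within the 47 cells of at least 1000000 reads these were 0.79, 0.68, 0.68, -0.34 and -0.041. The mean level of S genes had r = 0.51 with that of G2/M genes. Since a level is a share of the cell's reads, the content of RNA per cell is not measured here.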

How the data were processed

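Single cells were prepared on the Fluidigm C1 system and sequenced as 51 bp reads. The authors mapped reads to mm10 with TopHat2 2.0.10, keeping 1 alignment per read, counted them on RefSeq genes and deposited raw counts per gene and cell, without normalization (15181 genes, 21 of them joined names, 135 cells). Strand use in counting is not given in the sources used here. CPM and log2(CPM + 1) were computed over each cell's counted reads, for the 52 young cells of the study's limits. Exon lengths and 31-base stretches came from GENCODE M21 (14438 symbols matched), positions and promoters from RefSeq GRCm38.p6. The members, gene lists and measures were chosen with earlier results of these data known. Named were the 4 markers, the 15 most abundant genes, the 10 lowest and 10 highest SDs among universal genes, the 20 largest excess SDs, the 10 highest and 5 lowest r (each gene in 1 pair, no shared first 3 letters), up to 5 members per list and the 10 largest loadings on 3 components. Some genes that meet this rule are not reported here. Pairs and genes without shared stretches were added after the values were seen. Cells are not replicates, so no test was run. The steps were tested on simulated counts. Alternatives covered the cells, the limit, the pseudocount (0.1 and 10), thinning, Spearman and partial r, and the scaling factors of edgeR 4.0.16 (TMMwsp) and DESeq2 1.42.0 (poscounts). Python 3.11.15, numpy 2.4.6, pandas 2.3.3, scipy 1.17.1 and R 4.3.3 were used.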

Additional observations from a re-analysis of the deposited data

How the results depend on the processing

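Of 113 values under an alternative, 87 moved by less than 1.5 times (counts) or 0.05 (correlations), 26 moved further and 0 changed sign. The universal genes numbered 584, and 229 over all 61 young cells, 1070 with any read, 232 with a limit of 4 and 157 without widely shared stretches. Genes expressed in 26 or more cells numbered 5574 with any read and 1914 with a limit of 4. Genes with an excess SD of at least 1 numbered 298 with a pseudocount of 0.1 CPM, 18 with 10 CPM and 25 without widely shared stretches, and 3 of the 20 named variable genes stayed among the first 500 by the squared coefficient of variation. Pairs with r of at least 0.7 numbered 4673 over all 61 cells, 1754 in the cells of at least 1000000 reads, 389 after thinning, 5307 with TMMwsp factors, 2011 with poscounts factors and 21 between genes of separate sequence. The median r of the G2/M list was 0.36 over all 61 cells, 0.34 with TMMwsp, 0.37 with poscounts, 0.33 by Spearman, 0.26 as partial r and 0.363 over genes expressed in 26 or more cells. Ribosomal proteins had 0.60 with TMMwsp and 0.58 with poscounts factors, the S list 0.21 as partial r and the immediate-early list 0.12 over genes expressed in 26 or more cells. Leaving out each cell in turn gave 0.40 to 0.44 for the G2/M list, 0.33 to 0.37 for S, 0.051 to 0.075 for immediate-early genes and 0.16 to 0.18 for ribosomal proteins. The cause of these moves was not tested. Of 90 values of the named pairs, 23 moved by 0.05 or more and 0 changed sign. All cells are 1 mouse and 1 run, and depth under 1000000 reads in 5 cells limits what a 0 means. No paired analysis was possible because the result comes from no test.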

Other observations

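Rps27l, the paralogue of Rps27, was expressed in 41 cells with a median level of 6.56.

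Among subunits of oxidative phosphorylation, Atp5b and Atp5c1 of the ATP synthase were expressed in 51 cells each, whereas Ndufv1 of complex I was expressed in 13 and Ndufs1 in 14. Uqcrc1 of complex III (38 cells, excess SD 1.08) and Sdha of complex II (32 cells, 1.04) were the most variable of the list. In the interferon response list, Ifitm3 and Xaf1 were expressed in all 52 cells, the second with widely shared stretches, and Ifit3 and Mx2 in 1 cell each.

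Lyz1 and Lyz2, neighbouring lysozyme genes, were expressed in 39 and 43 cells with r = 0.95 between them. Near-identical genes share reads, and the part of this in their r was not tested.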
